A study of Drosophila melanogaster with 8 samples.

Results

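The 132 most abundant transcripts of control S2R+ cells were examined before and after depletion of M1BP. They are the transcripts whose deposited log2 expression value was at least 15 on each of the 4 LacZ RNAi arrays, whatever their value on the M1BP RNAi arrays, and they make up 0.853% of the 15473 transcripts measured. S2R+ cells are an adherent derivative of the Drosophila Schneider 2 line, which resembles haemocytes. Per the labels, 30 µg of double-stranded RNA was applied to every culture, which was kept for 5 more days before its total RNA was isolated. In 4 cultures the double-stranded RNA was directed against LacZ, a bacterial gene that the cells do not have, and in the other 4 against M1BP. The cell line is the same in both groups, no other genotype or agent is named in the labels, and each culture was hybridised to its own 1-colour Cy3 array.

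M1BP is a zinc-finger protein that binds Motif 1, a core promoter element found upstream of many constitutively transcribed Drosophila genes, ribosomal protein genes among them. In growing cells the most abundant messengers usually encode ribosomal proteins, translation factors, cytoskeletal proteins, chaperones and enzymes of energy metabolism. These statements are background. None of the 132 identifiers, which are FlyBase transcript numbers, occurs in the RefSeq Release 6 table of 17872 genes used for names, where 44 of all 15473 occur, so no member is given a gene name, a function, a position or a sequence. For the same reason neither the depletion of M1BP itself nor markers of haemocytes or of other cell types were examined here, and the gene lists that were drawn up could not be counted.

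Values are on the log2 scale, where 1 unit is a 2-fold step, after RMA, the method by which the authors corrected background, normalised arrays to each other and summarised the probes of each transcript. The level of a member on an array can rise only as far as the top of that scale. These are bulk cultures, so less RNA in every cell and a loss in part of the cells cannot be told apart. The highest value of any transcript on an array lay between 15.86 and 15.98, just under 16, the log2 limit of an intensity stored in 16 bits. No source used here says how the scanner stored its signal or whether any spot was saturated. Array medians ran from 7.91 to 8.01, but RMA brings arrays to a common level, so this does not show that they were alike. Correlations between arrays over all transcripts ran from 0.962 to 0.995.

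In LacZ RNAi cells the members filled a narrow band, by construction. Their means over 4 arrays ran from 15.12 to 15.82, with a median of 15.54, and the median SD of a member over the 4 arrays was 0.14. Of the 132, 14 had a LacZ RNAi mean from 15 to 15.25, 38 from 15.25 to 15.5, 75 from 15.5 to 15.75 and 5 above 15.75. With an SD of that size, most neighbours in the order of level do not differ beyond their spread. The order itself varied between arrays. Across the 132 members, Spearman's rho was 0.64 between LacZ RNAi replicates 2 and 3, 0.81 between 2 and 4 and 0.59 between 3 and 4. Replicate 1 followed the others less closely, with rho = 0.14 against replicate 2, 0.41 against replicate 3 and 0.16 against replicate 4. These are correlations across transcripts within a band that the choice of members made narrow. The 3 members nearest the limit had a lowest LacZ RNAi value of 15.003, 15.008 and 15.011. For the 3 transcripts just outside it this value was 14.996, 14.996 and 14.991, so the limit of 15 falls within a continuous run of values.

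In M1BP RNAi cells the same transcripts spread downwards, and they did so mainly on 2 of the 4 arrays. The median over the members was 15.48, 15.57, 15.59 and 15.57 on LacZ RNAi replicates 1 to 4, and 15.45, 15.03, 15.44 and 14.99 on M1BP RNAi replicates 1 to 4. M1BP RNAi replicates 2 and 4 therefore stood apart, while replicates 1 and 3 lay close to the LacZ RNAi arrays. A value of at least 15 was kept by 122 members on M1BP RNAi replicate 1 and by 116 on replicate 3, but by 74 on replicate 2 and 64 on replicate 4. The lowest M1BP RNAi value of any member was 11.68, on replicate 4, so no member approached the dim range of the arrays, below 7. The labels name no batch, day or other grouping that would set replicates 2 and 4 apart.

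**Figure D1:**
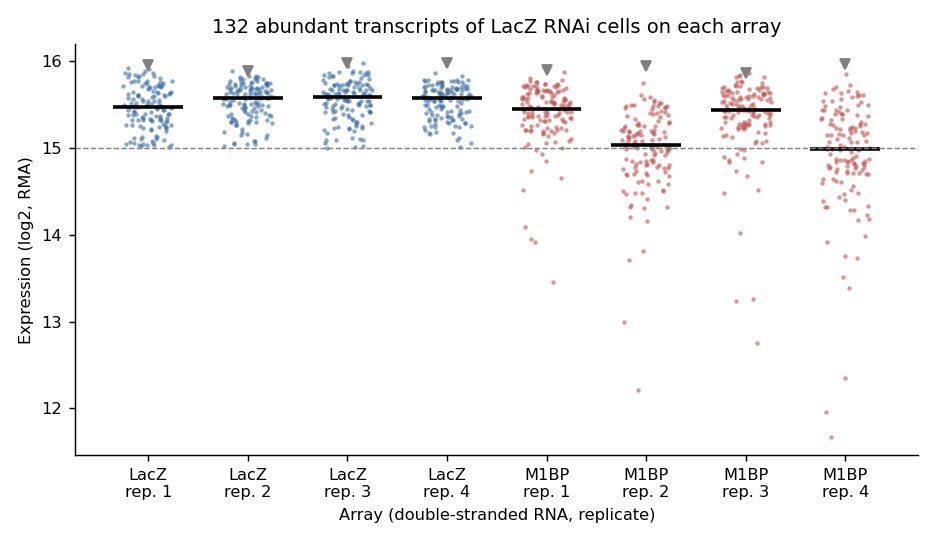
Expression (log2, RMA) of the 132 members on each of the 8 arrays; points are transcripts, black bars are medians, grey triangles mark the highest value of any transcript on the array and the dashed line is the limit of 15. The members sit between 15 and the top on the LacZ RNAi arrays and reach down to 11.68 on the M1BP RNAi arrays, with medians of 15.03 and 14.99 on M1BP RNAi replicates 2 and 4.

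The low level on these 2 arrays was a feature of most members rather than of a few. In 98 of the 132 (74.2%), M1BP RNAi replicates 2 and 4 both lay under replicates 1 and 3, and in 6 (4.55%) both lay over them. Over all 15473 transcripts these shares were 12.4% and 11.6%. Among the 366 transcripts of the next range below, those at 14 or more on each LacZ RNAi array that are no members, they were 17.8% and 22.1%. In the LacZ RNAi group the same comparison of replicates found 34 members (25.8%) with 2 and 4 under 1 and 3 and 30 (22.7%) with 2 and 4 over them, against 12.3% and 12.8% of all transcripts. The next range below had 23.5% and 23.2%, near the shares of the members. The comparison was chosen after the values were seen and has no test. The spread between replicates followed it: the median SD of a member was 0.28 over the M1BP RNAi arrays against 0.14 over the LacZ RNAi arrays. The next range below had 0.17 and 0.22. The rule for members limits the SD in the LacZ RNAi group, since all 4 values had to lie between 15 and the top.

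Pair by pair, the differences between same-numbered arrays show the same division. The median difference over the members, M1BP RNAi minus LacZ RNAi, was -0.04 in replicate 1, -0.54 in replicate 2, -0.10 in replicate 3 and -0.53 in replicate 4. The number of members that were lower was 71, 111, 85 and 112 of 132. Over the next range below, the medians were -0.02, -0.03, -0.03 and -0.05. Across the 132 members, Spearman's rho between the LacZ RNAi mean and the value on M1BP RNAi replicate 1 was 0.44, and 0.35 for replicate 3, whereas it was -0.49 for replicate 2 and -0.43 for replicate 4. Over the next range below, the 4 values were all positive, from 0.36 to 0.55. On M1BP RNAi replicates 2 and 4 the transcripts that had read highest in LacZ RNAi cells thus tended to read lower than other members.

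**Figure D2:**
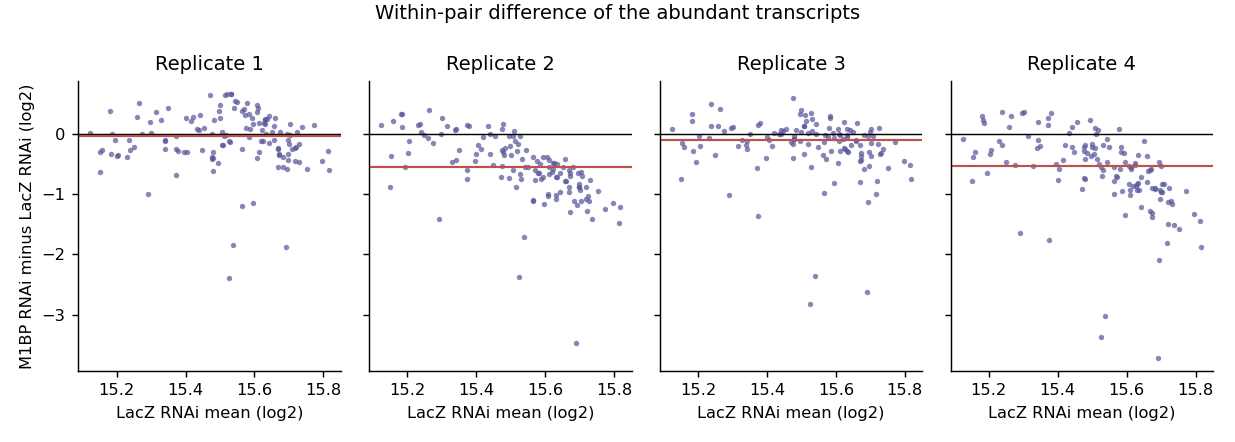
Within-pair difference (M1BP RNAi minus LacZ RNAi, log2) of each of the 132 members against its LacZ RNAi mean (log2), 1 panel for each replicate number; the black line is 0 and the red line the median over members. The medians are -0.04, -0.54, -0.10 and -0.53, and in replicates 2 and 4 the points slope downwards towards the highest LacZ RNAi means.

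The comparison asked which of these transcripts change when M1BP is depleted. Differences were fitted on all 15473 transcripts with limma, a linear model that shares information on the spread between transcripts, and a transcript was called at a Benjamini-Hochberg adjusted p under 0.05. The members were chosen on the LacZ RNAi values that enter each difference, so the counts below describe these transcripts and are not independent evidence of a direction. The LacZ RNAi values of members were picked for being high, which by itself favours falls. Of the 132 members, 10 were called lower (7.58%) and 0 higher. Over all transcripts 4.25% were called lower and 4.24% higher, together 8.49%, and in the next range below 56 of 366 (15.3%) were called lower and 26 (7.1%) higher. The median difference over the members was -0.27, with 112 below 0 and 20 above it, against a median of 0.00 over all transcripts. The largest fall was -2.92 and the largest rise 0.41. At an unadjusted p under 0.05 the same fit had 48 members lower and 2 higher. Over all 15473 transcripts it had 1377 lower and 1755 higher, and over the 366 of the next range below 99 lower and 72 higher. In 48 members (36.4%) the M1BP RNAi array was the lower one in all 4 pairs, against 17.7% of all transcripts, and in 6 (4.55%) it was the higher one in all 4, against 21%. In 39 members (29.5%) all 4 M1BP RNAi arrays lay under all 4 LacZ RNAi arrays, against 6.54% of all transcripts. In 1 member (0.758%) they lay above, against 7.74%. In the next range below, 30.3% were lower in all 4 pairs and 26.8% higher. There 22.4% lay lower without overlap and 16.9% higher, so many falls without overlap were not particular to the members.

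Same-numbered arrays deviated together from their group means over the whole table, so a second fit took the replicate number as a block, and it is called the paired fit. It called 34 members lower (25.8%) and 2 higher (1.52%), where 9.49% of all transcripts were called lower and 12.5% higher, together 22%. In the next range below it called 90 of 366 lower (24.6%), a share near that of the members, and 59 higher (16.1%). The 34 include the 10. In all 24 of the members called lower in the paired fit only, M1BP RNAi replicates 2 and 4 both lay under replicates 1 and 3, and their differences ran from -1.24 to -0.41. Among the 10, this was so in 7, and among the 96 members called in neither fit it was so in 67. The count depends on which M1BP RNAi arrays are used. Without M1BP RNAi replicates 2 and 4, 4 members were called lower and the median difference was -0.06. Without replicates 1 and 3 instead, 43 were called lower and the median was -0.45. Both settings were added after the values were seen, and each leaves 2 M1BP RNAi arrays. Calls over all transcripts were not counted in these settings, so whether they moved likewise is not known. Leaving out M1BP RNAi replicate 1 alone raised the 10 to 18.

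The largest falls were found on every M1BP RNAi array. FBtr0085864 read 15.82, 15.69, 15.86 and 15.39 on LacZ RNAi replicates 1 to 4. On M1BP RNAi replicates 1 to 4 it read 13.95, 12.22, 13.24 and 11.68. The groups do not overlap, and the 2 lowest values are again those of replicates 4 and 2. The group means were 15.69 ± 0.21 and 12.77 ± 1.02 (SD, n = 4), and the fall of 7.57-fold had a log2 difference of -2.92 with an SE of 0.43 (limma, adjusted p = 0.0029).

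FBtr0082590 read 15.84, 15.37, 15.57 and 15.32 on the LacZ RNAi arrays and 13.45, 12.99, 12.75 and 11.95 on the M1BP RNAi arrays, in the same order of replicates. Here replicate 3 lay below replicate 2, so the values did not follow the division of the arrays. The group means were 15.53 ± 0.24 and 12.79 ± 0.63 (SD, n = 4), and the fall of 6.67-fold had a log2 difference of -2.74 with an SE of 0.29 (limma, adjusted p = 0.00042). The member with the third-largest fall read 15.75, 15.42, 15.62 and 15.37 on the LacZ RNAi arrays. On the M1BP RNAi arrays it read 13.91, 13.71, 13.27 and 12.35, which is 4.69-fold lower with a log2 difference of -2.23 and an SE of 0.30 (limma, adjusted p = 0.0019). These 3 are the members that were at least 2-fold lower in each of the 4 pairs, and the members with an M1BP RNAi mean under 14.

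The other 7 members called lower fell by 1.69-fold to 2.39-fold, with differences from -1.26 to -0.76, and ended at M1BP RNAi means from 14.03 to 14.85. In all 10 the groups did not overlap. Adjusted p-values of the 10 ran from 0.00042 to 0.0383 (limma). They are not 10 separate cases: 2 of them have consecutive transcript numbers, with differences of -1.12 and -1.07, so the 10 form 9 runs of identifiers. The members with the fifth-largest and the seventh-largest fall were not called, and both had wide spreads between their M1BP RNAi arrays. The seventh-largest is the member with the highest LacZ RNAi mean of all, which read 15.96, 15.70, 15.98 and 15.63 on the LacZ RNAi arrays and 15.37, 14.48, 15.24 and 13.75 on the M1BP RNAi arrays. The M1BP RNAi SD was 0.75, and the difference was -1.11 with an SE of 0.32 (limma, adjusted p = 0.0738), or 0.0042 in the paired fit. For the member with the fifth-largest fall the M1BP RNAi SD was 0.82 and the difference -1.24 with an SE of 0.36 (limma, adjusted p = 0.0688), or 0.0033 in the paired fit.

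The 5 members with a LacZ RNAi mean above 15.75 differed by a median of -0.91, and their M1BP RNAi means ran from 14.71 to 15.23. None of these 5 was called, and 4 (80%) were called lower in the paired fit. Their median SD was 0.13 over the LacZ RNAi arrays and 0.66 over the M1BP RNAi arrays. The median difference was -0.39 for the 75 members from 15.5 to 15.75, -0.09 for the 38 from 15.25 to 15.5 and -0.12 for the 14 from 15 to 15.25. The paired fit called 24 (32%), 4 (10.5%) and 2 (14.3%) of these lower. The shares were 9.49% over all transcripts and 24.6% in the next range below. Across the 132 members the LacZ RNAi mean and the difference had a Spearman's rho of -0.63, but the difference contains the LacZ RNAi values, so part of this relation is built in.

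**Figure D3:**
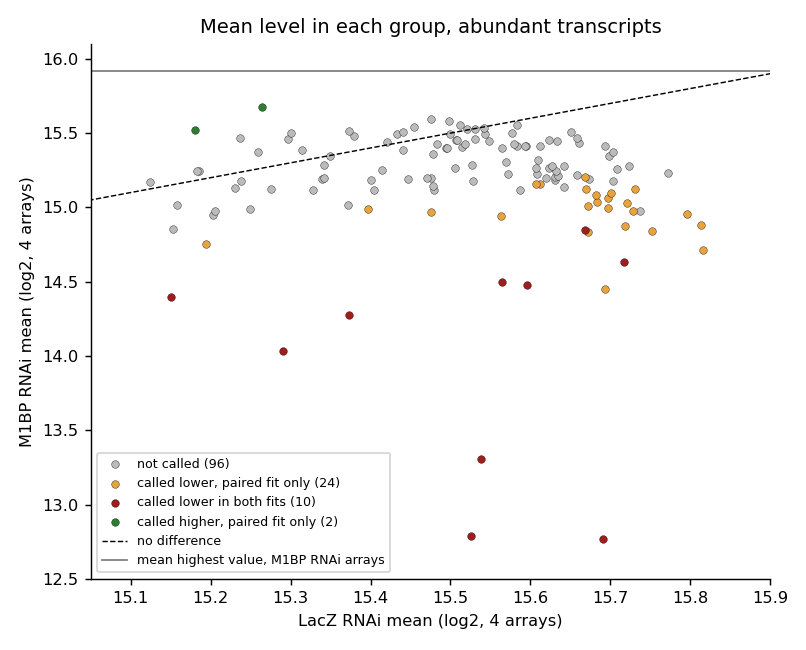
Mean M1BP RNAi level against mean LacZ RNAi level (log2, 4 arrays each) for the 132 members, coloured by call; the dashed line marks no difference and the grey line the mean of the highest values of the 4 M1BP RNAi arrays, 15.92. Most points lie under the dashed line, 10 are called lower in both fits, 24 lower and 2 higher in the paired fit only, and 96 in neither.

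Rises among the members were few and small. The paired fit called 2 members higher. FBtr0088001 read 15.04, 15.34, 15.12 and 15.56 on LacZ RNAi replicates 1 to 4 and 15.56, 15.74, 15.54 and 15.85 on M1BP RNAi replicates 1 to 4. It was higher in all 4 pairs, although the groups overlap, and it was 1.33-fold higher with a log2 difference of 0.41 and an SE of 0.14 (limma, adjusted p = 0.133, or 0.0174 in the paired fit). FBtr0079233 read 15.03, 15.26, 15.09 and 15.34 on the LacZ RNAi arrays and 15.42, 15.59, 15.43 and 15.64 on the M1BP RNAi arrays. It is the 1 member whose M1BP RNAi arrays all lay above its LacZ RNAi arrays, and it was 1.26-fold higher with a log2 difference of 0.34 and an SE of 0.12 (limma, adjusted p = 0.128, or 0.0347 in the paired fit). In the paired fit without 1 pair, FBtr0079233 was called in none of the 4 cases (adjusted p from 0.0848 to 0.108), and FBtr0088001 in 1 of them, without replicate 4 (adjusted p = 0.0379).

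The highest values on the arrays were used to bound what a rise could have looked like. The room of a member was taken as the mean of the highest values of the 4 M1BP RNAi arrays, 15.92, minus the member's LacZ RNAi mean. It ran from 0.10 to 0.79 with a median of 0.38, so a member raised to the level of the brightest transcript on the arrays would have shown a rise of 1.07-fold to 1.73-fold. No member had room for a 2-fold rise, and 22 had room for 1.5-fold. The room does not bound a fall: 10 members were lower by 2-fold or more on average, 8 of them called. A LacZ RNAi value held down by the top of the scale would make a fall read smaller than it was. Whether any value was held down was not tested. FBtr0088001 had a room of 0.65 and FBtr0079233 of 0.74, beside measured differences of 0.41 and 0.34.

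At the spread measured here, a rise to the level of the brightest transcripts would not have been called for most members. From each member's SE, the smallest difference that would pass was computed at the highest unadjusted p among called transcripts, 0.00424. Its median over the members was 0.62. The room reached it in 35 members and stayed under it in 97. By LacZ RNAi mean, the room was large enough in 14 of 14 members from 15 to 15.25, in 20 of 38 from 15.25 to 15.5, in 1 of 75 from 15.5 to 15.75 and in 0 of 5 above. In the next range below it was large enough in 335 of 366. The paired fit, with a median smallest difference of 0.45, left 50 members with enough room and 82 without. The count of 0 members called higher thus says little about 97 of the 132. This holds for the SE as measured, which includes the spread over the 4 M1BP RNAi arrays, among which replicates 2 and 4 stood apart. With the median smallest difference of the next range below, 0.57, in place of each member's own, a setting added after the values were seen, 26 members had enough room. The top used is the highest value observed, and a higher limit of the scale would leave more room.

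**Figure D4:**
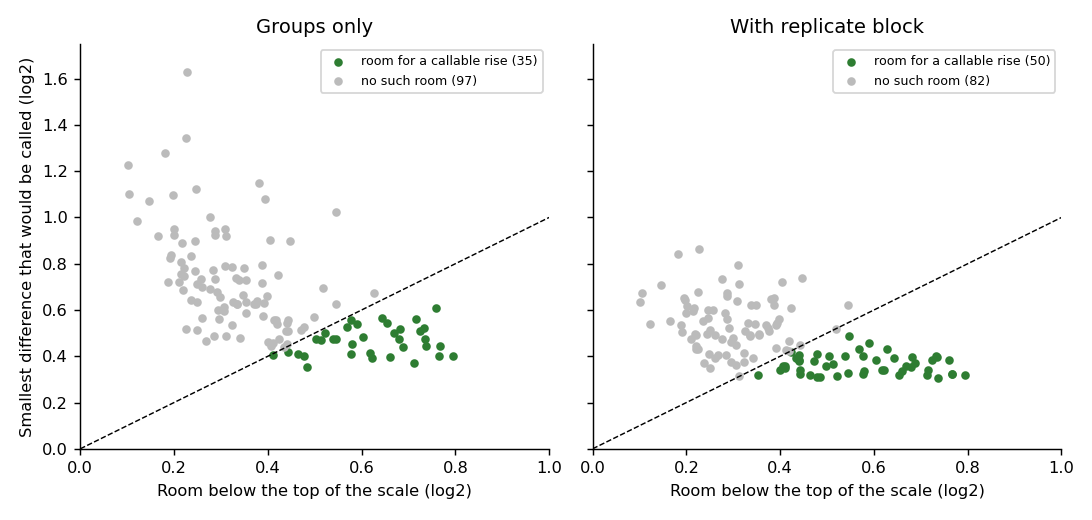
Smallest difference that would be called (log2) against the room below the top of the scale (log2) for each of the 132 members, on the left with groups only and on the right with the replicate block; the dashed line marks equality. Members under the line, 35 on the left and 50 on the right, had room for a rise that would be called.

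For all 132 members, called or not, the intervals bound the difference as read on this scale. The 95% interval of the difference lay within 1.5-fold in both directions for 60 of the 132 members and within 2-fold for 101. Over all 15473 transcripts these counts were 8370 and 12579. On the upper side the scale itself limits what could be read. No member had room for a 2-fold rise below the highest values observed, and 22 had room for 1.5-fold. These intervals therefore do not exclude larger rises in the cells. Of the 75 members from 15.5 to 15.75, 22 had an interval within 1.5-fold, and of the 5 above 15.75 none had one, even within 2-fold. Among members with lower LacZ RNAi means, 10 of the 14 from 15 to 15.25 and 28 of the 38 from 15.25 to 15.5 had an interval within 1.5-fold.

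A rule that looks at the control group alone and one that looks at the depleted group alone give opposite pictures. At 15 or more on each of the 4 M1BP RNAi arrays there were 140 transcripts, of which 54 were members, 40.9% of the members and 38.6% of the 140. The other 86 were under 15 on at least 1 LacZ RNAi array, and 78 members were under 15 on at least 1 M1BP RNAi array. Of these 78, 27 were at 15 or more on 3 of the 4 M1BP RNAi arrays, and 50 had an M1BP RNAi mean of at least 15. Of the 140, 30 were called higher (21.4%) and 0 lower, with a median difference of 0.21. Over all transcripts 4.24% were called higher and 4.25% lower. The M1BP RNAi values of the 140 were picked for being high, which by itself favours rises. By a mean over all 8 arrays of at least 15, which treats both groups alike, there were 210 transcripts. Of these, 14 were called higher (6.67%) and 4 lower (1.9%), with a median difference of -0.07. The 54 transcripts at 15 or more on all 8 arrays had 0 calls (limma, with 1 lower and 2 higher at an unadjusted p under 0.05) and a median difference of -0.05. All their values had to lie between 15 and the top, so this rule itself excludes large differences. Their median smallest difference that would be called was 0.49, so few calls say little here. In the paired fit the 210 had 29 higher (13.8%) and 27 lower (12.9%). The 140 had 44 higher (31.4%) and 0 lower, and the 54 had 2 higher (3.7%) and 0 lower. Over all transcripts the paired fit called 12.5% higher and 9.49% lower. The direction of the median difference thus changed with the group whose values had to reach 15.

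**Figure D5:**
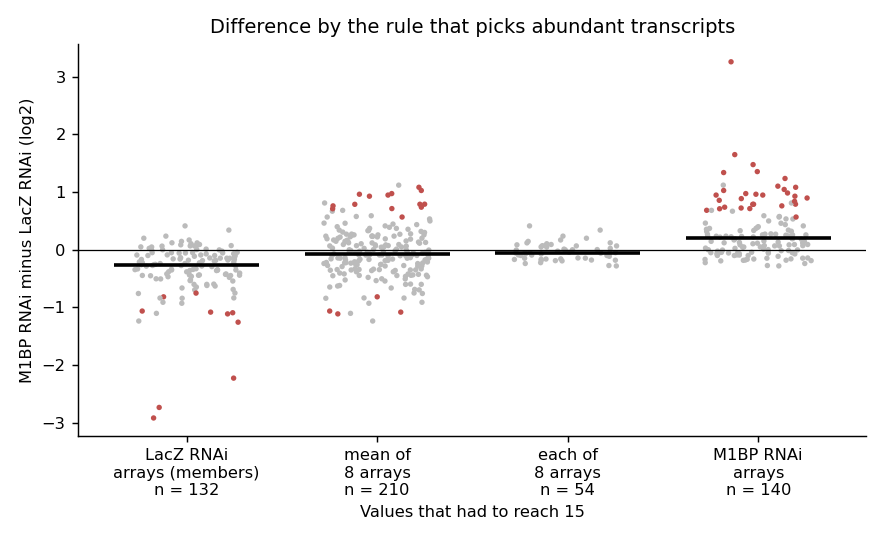
Difference (M1BP RNAi minus LacZ RNAi, log2) for transcripts picked by 4 rules, named on the x axis by the values that had to reach 15; points are transcripts, red where called (limma, adjusted p under 0.05), and black bars are medians. The median is -0.27 under the LacZ RNAi rule, -0.07 and -0.05 under the rules that use all 8 arrays and 0.21 under the M1BP RNAi rule.

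At 15 or more there were 209, 208, 222 and 219 transcripts on LacZ RNAi replicates 1 to 4 and 233, 224, 242 and 224 on M1BP RNAi replicates 1 to 4, so the M1BP RNAi arrays held somewhat more of them, with no overlap between the groups. By the rule, all 132 members are among them on every LacZ RNAi array, which leaves 76 to 90 other transcripts there. Because the members were chosen on those arrays, this number has no meaning as a baseline for the M1BP RNAi arrays. Among the M1BP RNAi arrays, which the rule did not use, the transcripts other than members numbered 111, 150, 126 and 160 on replicates 1 to 4. They were most numerous on replicates 2 and 4, where the members were lowest. Each number is the array's total less its members at 15 or more, so this is not a separate observation. RMA normalises arrays to each other, so these values are levels relative to other transcripts. A change shared by most transcripts of the cell would not be visible in these values.

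Some members had neighbouring identifiers. Of the 132, 33 had consecutive transcript numbers, in 15 runs of at most 4, and the other 99 stood alone. The differences of 2 members with consecutive numbers were alike, with a median gap of 0.07 and a largest gap of 0.18 over 18 such pairs. Over all 8646 pairs of members the median gap was 0.32. No source used here says whether such transcripts belong to 1 gene or share probes, and they are not independent of each other. Counted as runs, the 132 members come to 114, and the 34 members called lower in the paired fit come to 29.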

How the data were processed

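RMA made the log2 values that the authors deposited, per the submitters' processing notes, with no version stated. Per the labels the arrays were NimbleGen arrays with 1 colour. A log2 scale was inferred from the range, 4.27 to 15.98. Array annotation and genome build are not given in the sources used here. Raw intensities, detection calls and probe sequences were not used. With 4 arrays in a group, the median SE of a member's difference was 0.17, or 0.14 in the paired fit. The series design calls the cultures biological replicates.

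All 15473 transcripts were fitted with limma 3.58.1 (R 4.3.3), two-sided, with group as the only term and no filter on level. Descriptions used Python 3.11.15. The fit was tested on simulated data. Replicate numbers were treated as pairs: after removal of group means, arrays with the same number correlated across transcripts, with r = 0.66, 0.66, 0.48 and 0.67. What a number marks is not in the labels. No 2 arrays were identical.

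The members, lists and tests were chosen with earlier results of these data known. The rule for naming was every member tied to 1 gene, which none was, plus the identifiers of the 2 largest called falls and rises. The 2 rises were called in the paired fit only and were named after their values were seen. Alternatives were other normalizations, priors, filters, thresholds, sets of arrays and rules for members.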

Additional observations from a re-analysis of the deposited data

Results flagged for a closer look

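An array lying far from the other 3 of its group was looked for in the 4 transcripts printed by identifier, the median over the members, the array medians, the highest value of the array and the number of members at 15 or more. Of 15 groups, 1 had such an array, where chance alone gives about 1 in 20. The median over the members on LacZ RNAi replicate 1 was 15.48, with the other 3 LacZ RNAi arrays between 15.57 and 15.59. Without this array 8 members were called lower and 0 higher, and 167 transcripts would have met the limit of 15 on the remaining 3. Over all 132 members taken singly, 12 (9.09%) had a LacZ RNAi array far from the other 3, which was replicate 1 in 7 and replicate 3 in 5. In the M1BP RNAi group 2 members (1.52%) had one, replicate 4 both times. The low medians of M1BP RNAi replicates 2 and 4 were not picked out in this way, since they lie next to each other.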

How the results depend on the processing

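Among the 132 members, the 10 calls (10 lower, 0 higher) became 36 with the replicate block (34 lower, 2 higher). They became 21, all lower, with a split of replicates 1 and 2 from 3 and 4 as a term. This split was made by replicate number alone, and the labels name no such sets. There were 6, all lower, at an adjusted p under 0.01 and with the pooled-variance test, 3, all lower, within replicates 1 and 2, and 10 within replicates 3 and 4. Without M1BP RNAi replicates 2 and 4 there were 4, all lower, and without 1 and 3 there were 43, all lower, settings added after seeing the data. Leaving out 1 array gave 7 to 18, all lower and 0 higher, and 7 to 10 of the 10 kept their call. The most, 18, came without M1BP RNAi replicate 1. Over all transcripts, calls were counted only for the fit with group alone and for the paired fit with all 4 pairs. The replicate block without 1 pair gave 18 to 44 changed, 18 to 44 lower and 0 to 1 higher, with 18 without replicate 2 and 23 (22 lower) without replicate 4. Array weights, median centring, a repeated quantile normalization, a trended robust prior, a filter at a mean of 7 and a smallest difference of 0.5 gave 10 to 14, all lower.

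Other rules moved the counts most. Over all transcripts 4.25% were called lower and 4.24% higher, or 9.49% and 12.5% with the block. By the mean over 8 arrays there were 210 transcripts with 18 calls (4 lower, 14 higher), or 56 with the block (27 lower, 29 higher). By the M1BP RNAi arrays there were 140 with 30 calls (0 lower, 30 higher), or 44 with the block (0 lower, 44 higher), and the median difference turned from -0.27 to 0.21. By each of the 8 arrays, a rule that itself excludes large differences, there were 54 with 0 calls, or 2 with the block (0 lower, 2 higher). At 14 or more there were 498 with 92 calls (66 lower, 26 higher), or 185 with the block (124 lower, 61 higher). At 15.5 or more there were 33 with 1 call, lower, or 17 with the block, all lower. Leaving out 1 LacZ RNAi array gave 136 to 167 members. FBtr0082590 was called in every alternative and FBtr0085864 in all but the fit within replicates 1 and 2 (limma, adjusted p = 0.0563). FBtr0088001 and FBtr0079233 kept their sign throughout. The median room was 0.36 with the second highest value of each array and 0.32 with the lowest array maximum, against 0.38, and 34 and 26 members had room for a rise that would be called, against 35. Apart from what a setting imposes (fewer arrays, a stricter threshold, another rule), the cause was not tested. Signal over background was not measured.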
